A study of Mus musculus with 18 samples.

Results

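The hearts of mdx mice were compared with leg muscle of mdx mice across all genes on the array. mdx mice carry a mutation in Dmd and lack full-length dystrophin, the protein that ties the actin cytoskeleton of a muscle fibre to its membrane. The groups were chosen by the tissue and genotype in the sample titles: 3 heart and 3 leg arrays of mdx mice, 6 of the 18 arrays in the series, all from total RNA of mice 8 weeks of age. Both tissues were also taken from dko mice of the same age (3 heart and 3 leg arrays), a name commonly used for double mutants without dystrophin or utrophin, though the labels do not spell it out; these 6 arrays give the same tissue comparison in a second genotype, and all 18 arrays entered 1 fit, so that they share its estimate of spread and its block. The titles name the mdx samples as the control, and the 18 arrays hold no group labelled wild type, so a tissue difference that healthy mice have and one that comes with the mutation cannot be told apart here. The labels do not say which leg muscle was taken, or whether a group's arrays stand for different animals; the p-values are therefore a measure of the spread of arrays, part of which may be technical.

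Heart and limb muscle are both striated and share the plan of the sarcomere, but they use different members of many gene families for it. In the heart, mononucleate or binucleate cardiomyocytes are joined end to end at intercalated discs, beat without a nerve impulse for each contraction, release calcium through a channel that calcium itself opens, and burn mainly fatty acids. Limb muscle is made of long multinucleate fibres, each driven by a motor nerve through a neuromuscular junction; in fast fibres calcium release is coupled mechanically to the voltage sensor, and much of the fuel is glycogen. In mdx mice limb fibres go through rounds of necrosis and regeneration from muscle stem cells in the first weeks of life, whereas the heart, which has no comparable stem cell, shows little disease at a young age.

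The values are intensities that the authors had scaled to a common trimmed mean, and they were compared as log2(intensity + 166.1). A fold change on that scale is smaller than the ratio of the intensities for a dim probe set. The replicate number in the titles entered as a block, which the rule that set the comparison named. The arrays numbered 3 stood apart in every group, with medians of 525.6 to 573.75, while the other arrays had 612.6 to 671.8. Same-numbered mdx heart and leg arrays deviated together (correlation across probe sets 0.393 to 0.653 in the 3 pairs). The tissue labels matched the markers: 7 of 7 tested cardiomyocyte markers were higher in heart, where their summed intensity was 107303 to 284696 against 2773 to 3808 in leg. Of 8 markers of the skeletal fibre 7 were lower in heart, with a sum of 1079 to 3854 in heart and 72409.9 to 321862 in leg. The 66 control probe sets were fitted apart, with the p-values adjusted over those 66. Of the 29 murine controls 7 differed between the tissues, among them 2 for Gapdh (log2 differences of 2.83 and 2.15), and 0 of the other 37 controls did. In the main fit 22.8% of the probe sets tested were called.

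At an adjusted p under 0.05, 2026 of the 8888 probe sets tested were called different between mdx heart and mdx leg (22.8%): 1042 were higher in heart (11.7%) and 984 lower (11.1%). The median log2 difference over all probe sets was -0.0017. Differences above 1 log2 unit were found in 808 of the called probe sets, 408 of them higher in heart and 400 lower. Those above 3 log2 units numbered 39 in the heart direction and 40 in the leg direction. In 1519 of the called probe sets the 3 heart and the 3 leg intensities did not overlap; over all tested, 23.3% did not overlap (12.1% with heart above and 11.2% with leg above). Without the replicate block 886 probe sets were called (9.97%; 5.04% higher and 4.93% lower), and all 886 were among the 2026, in the same direction. Without the arrays numbered 3 there were 1336 calls (15%; 7.71% higher and 7.32% lower), of which 1211 were also called with all arrays. A fit on the 6 mdx heart and leg arrays alone gave 1260 calls. Leaving out 1 of the 6 mdx arrays at a time left 1583 to 1735 calls.

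The dko arrays gave a tissue difference much like it. Of 2093 probe sets called between dko heart and dko leg (23.5%; 12% higher and 11.5% lower), 1317 were also called in mdx, all of them in the same direction, which is 65% of the mdx calls and 62.9% of the dko calls. The sign was shared by 96% of the mdx calls, against 73.6% of all probe sets tested. Across probe sets the 2 differences correlated with r = 0.838, a description over features of the same fit and block, with no p. The tissue difference itself differed between dko and mdx for 4 probe sets (0.045%), Myh7, Tnnc1, Atp2a2 and 1 without a gene symbol, which are described with the slow-fibre genes.

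**Figure D1:**
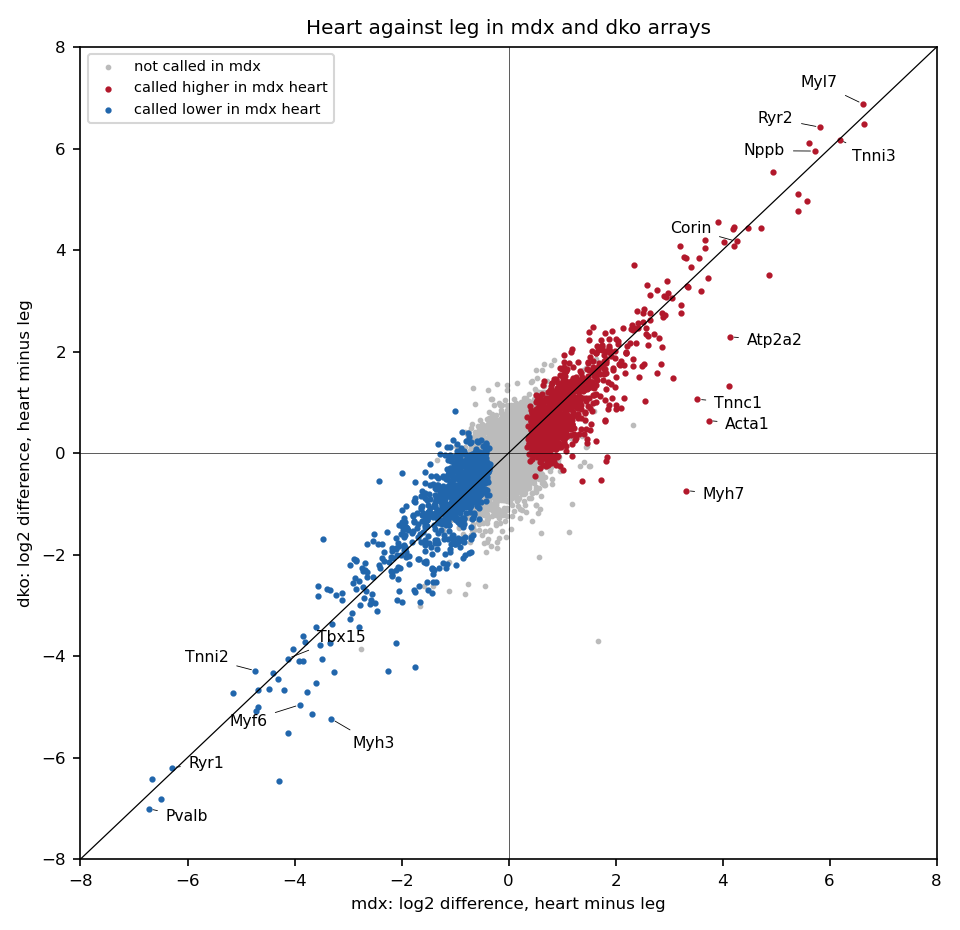
Each point is 1 of the 8888 probe sets tested, with its log2 difference between heart and leg in mdx on the horizontal axis and in dko on the vertical axis; red and blue mark the 1042 probe sets called higher and the 984 called lower in mdx heart, and the diagonal marks equal differences. Most called points lie along the diagonal, while Myh7, Acta1, Tnnc1 and Atp2a2 lie far below it.

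Genes were ranked among called probe sets with a single symbol whose heart and leg arrays did not overlap. The largest heart excess was found in the contractile proteins Myh6 and Myl7, followed by Tnni3, Ryr2, Nppb, Dsp, Mybpc3, Myzap and Fhl2. The largest leg excess was found in Pvalb, Tnnt3, Myh1 and Ryr1, followed by Myoz1, Tnni2, Mylpf, Cacng1, Tpm2 and Camk2b. To show what lies upstream of such genes, the 250 bases before the start of 2 heart genes and 2 leg genes are printed here from RefSeq (build GRCm38.p6), 5′ to 3′ on the strand of the gene. Myl7 encodes the atrial myosin light chain and Nppb the B-type natriuretic peptide. Chrna1 encodes the alpha subunit of the acetylcholine receptor of muscle and Myh4 the myosin heavy chain of the fastest limb fibres. Capitals mark matches, on either strand, to 7 motifs known from muscle promoters: the E-box CAGCTG, bound by factors of the MyoD family; AGATAA, bound by GATA factors; TNAAGTG, bound by Nkx2-5 and its relatives; the M-CAT element CATTCC, bound by TEAD factors; TATAAA; the MEF2 site; and the CArG box, bound by serum response factor. In Nppb the M-CAT and E-box matches adjoin each other, and in Myh4 one TATAAA match on the other strand lies inside the MEF2 match.
Myl7, chr11:5898783-5899032, minus strand: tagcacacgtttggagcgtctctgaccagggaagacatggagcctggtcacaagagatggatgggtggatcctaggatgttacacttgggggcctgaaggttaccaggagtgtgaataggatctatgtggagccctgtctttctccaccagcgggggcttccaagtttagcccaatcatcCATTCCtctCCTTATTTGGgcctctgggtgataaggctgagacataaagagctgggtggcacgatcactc
Nppb, chr4:147985650-147985899, plus strand: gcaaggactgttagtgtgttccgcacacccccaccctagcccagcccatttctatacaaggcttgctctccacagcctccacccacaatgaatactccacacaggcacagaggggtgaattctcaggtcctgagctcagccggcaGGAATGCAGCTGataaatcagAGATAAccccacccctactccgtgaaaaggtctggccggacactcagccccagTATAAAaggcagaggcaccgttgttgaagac
Chrna1, chr2:73580339-73580588, minus strand: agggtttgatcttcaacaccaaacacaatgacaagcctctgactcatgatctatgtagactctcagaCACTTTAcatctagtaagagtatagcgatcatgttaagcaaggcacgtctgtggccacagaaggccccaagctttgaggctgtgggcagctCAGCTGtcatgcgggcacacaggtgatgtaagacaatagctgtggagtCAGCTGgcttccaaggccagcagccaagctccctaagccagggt
Myh4, chr11:67237562-67237811, plus strand: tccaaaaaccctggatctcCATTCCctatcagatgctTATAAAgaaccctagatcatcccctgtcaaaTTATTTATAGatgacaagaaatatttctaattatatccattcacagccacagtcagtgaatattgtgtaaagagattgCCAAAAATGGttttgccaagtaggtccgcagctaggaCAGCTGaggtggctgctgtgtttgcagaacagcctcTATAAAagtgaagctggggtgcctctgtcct
The Myl7 stretch holds 1 M-CAT element and 1 CArG box. The Nppb stretch holds 1 E-box, 1 GATA site, 1 M-CAT element and 1 TATAAA. Chrna1 has 2 E-boxes and 1 match to TNAAGTG, and Myh4 has 1 E-box, 1 M-CAT element, 1 MEF2 site, 1 CArG box and 3 matches to TATAAA. Of the 25 genes furthest in each direction, 17 on the heart side and 15 on the leg side had 1 start in the promoter table. The E-box was found upstream of 23.5% of the heart genes and 46.7% of the leg genes, against 12.7% of all 22862 promoters of the same length. The MEF2 site was found in 5.88% and 20% against 3.11%, the CArG box in 11.8% and 6.67% against 1.38%, and M-CAT in 29.4% and 26.7% against 12.6%. AGATAA was found in 17.6% of the heart genes and 6.67% of the leg genes against 10.4% of all, TATAAA in 17.6% and 26.7% against 13.6%, and TNAAGTG in 0% and 6.67% against 10.1%. The heart genes here include Acta1, the skeletal alpha-actin, whose call is described below. Acta1 and Myl7 were the only heart genes with a CArG box, and Acta1 also had E-box, M-CAT and TATAAA matches. These shares rest on few genes and are descriptions of letters, not of binding.

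Contractile proteins lay at both ends of the tissue difference. Of 16 tested genes of the cardiac sarcomere (of 16 on the array), 12 were higher in mdx heart and 0 lower, with a median log2 difference of 2.33. The 4 not called were Myl2 (1.68), Tcap (-0.04), Actn2 (-0.31) and Ldb3 (-0.38). Under quantile normalization 11 were higher and 1, Ldb3, lower. In dko 10 were higher and 1 lower, with a median of 1.07. Over all 6551 genes tested in mdx, with 1 probe set each, 12.6% were higher, 11.4% lower and the median was 0.0106. Of 12 tested genes of the fast skeletal sarcomere (of 13 on the array), 9 were lower in heart and 1 higher, with a median of -4.49. The lists were chosen with these tissues in mind, so their direction is a description. These shares of all genes stand beside the count of every list below.

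Myh6 (101071_at), the alpha myosin heavy chain of the adult mouse heart, read 30609, 6874 and 68085 on mdx heart arrays 1, 2 and 3 and 93, 53.6 and 90.1 on the leg arrays. The heart arrays spread widely, yet the lowest of them was far above every leg array (log2 difference, heart minus leg, 6.65 ± 0.60 standard error, adjusted p = 1.38e-06); the values given after a gene below are this difference and its standard error. Myl7 read 26192, 14317 and 34737 in heart and 91.8, 61.5 and 74 in leg (6.62 ± 0.20, adjusted p = 6.47e-11). Tnni3 (100921_at) encodes cardiac troponin I, the inhibitory subunit that locks the thin filament at rest. It read 22962, 21190.0 and 71792 in heart and 663, 350.2 and 48 in leg (6.19 ± 0.63, adjusted p = 5.49e-06). Tnnt2, cardiac troponin T, which ties the troponin complex to tropomyosin, read 36046, 29045 and 69215 against 1459, 1029.6 and 1364 (4.86 ± 0.34, adjusted p = 1.4e-07). Mybpc3, the cardiac myosin-binding protein C of the thick filament, read 22784, 13804 and 53649 against 763, 446 and 119 (5.57 ± 0.60, adjusted p = 9.45e-06). For these genes heart and leg arrays did not overlap, and the dko arrays gave 6.48, 6.88, 6.17, 3.50 and 4.97 in the same order.

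The leg counterparts moved the other way. Tnnt3 (92885_at), the troponin T of fast fibres, read 177, 385 and 40.5 in heart and 28382, 19491 and 73099 in leg (-6.67 ± 0.40, adjusted p = 2.11e-08). Tnni2, fast troponin I, read 67.9, 138 and 73.4 against 7690.1, 5939 and 6432 (-4.73 ± 0.20, adjusted p = 7.29e-10). The fast regulatory light chain Mylpf read 18.5, 72 and 22.7 against 5719.9, 2958 and 8072 (-4.72 ± 0.36, adjusted p = 2.6e-07). In each of these every leg array stood above every heart array, which the same naming rule required. Myh1, the myosin heavy chain of type 2X fibres, differed by -6.49 ± 0.54, and its heart arrays read 20.6, 554 and 166 against 23697, 20582 and 65337 in leg. Myoz1, a Z-disc protein of fast fibres that binds calcineurin, differed by -5.15 ± 0.41, and Tpm2, beta-tropomyosin, by -4.69 ± 0.19. Second probe sets did not always follow: Mylpf 92881_at gave -0.53 and was not called. Myh4 98488_at gave -4.29 and Myh4 161545_r_at 1.09, a call that was lost without the block (adjusted p = 0.315), the arrays numbered 3 (0.0834), heart array 3 (0.93, 0.0611) or leg array 3 (0.81, 0.0716).

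Of 27 pairs of related genes, most of them a heart and a skeletal version of one protein, 18 had both partners tested. In 7 pairs the heart partner was higher in heart and the skeletal partner lower: Tnni3 and Tnni2, Tnnt2 and Tnnt3, Myh6 and Myh4, Myl7 and Mylpf, Atp2a2 and Atp2a1, Ryr2 and Ryr1, and Cacna1c and Cacna1s. In 6 pairs only the first partner was called and in 3 only the skeletal partner. Of those 6, Fabp3 with Fabp4 and Cox6a1 with Cox6a2 are not heart and skeletal versions, since Fabp4 is the form of adipocytes and the heart uses Cox6a2 too. In the other 2, Actc1 with Acta1 and Ldhb with Ldha, both partners were higher in heart. Some of these calls rest on few arrays, among them those of Atp2a1, Actc1, Myh4 and Ldha. Myh4 had an adjusted p of 0.145 without the arrays numbered 3, and Ldha of 0.179 without the block. The arrays of both genes are described further below. Atp2a1 (log2 -3.26, adjusted p = 0.0321) had an adjusted p of 0.132 without the block and 0.275 without the arrays numbered 3 (-1.40), and it was at -3.31, -2.12 and -2.17 (adjusted p = 0.078, 0.178 and 0.173) without heart array 1, heart array 3 or leg array 3. Actc1 (0.56, adjusted p = 0.0279) had an adjusted p of 0.343 without the block and 0.0656 without the arrays numbered 3, and it was lost without heart array 1 (0.56, adjusted p = 0.0748), heart array 3 (0.43, 0.135), leg array 1 (0.39, 0.148) or leg array 2 (0.60, 0.0561).

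**Figure D2:**
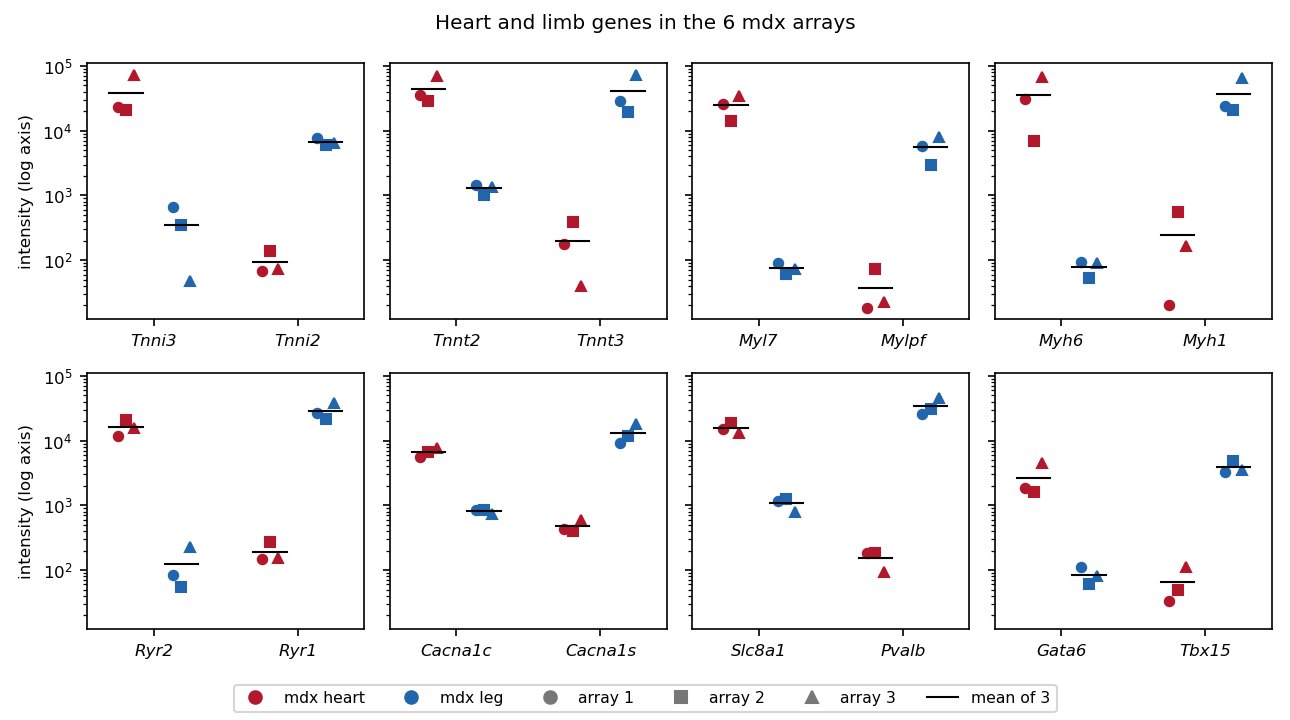
Each of the 8 panels shows a heart gene and a leg gene, with the intensity of each mdx array on a log axis; red stands for heart, blue for leg, the marker shape for the array number (1, 2 or 3) and the black line for the mean of 3. In all 16 genes the heart and leg arrays do not overlap, which was a condition for naming all of them except Cacna1c and Gata6.

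The skeletal alpha-actin gene did not follow the fast genes. Acta1 (100381_at), the actin of adult limb muscle, read 14479.6, 13100.4 and 14452 in mdx heart and 256, 248 and 6656 in mdx leg (3.74 ± 0.73, adjusted p = 0.00187). Leg arrays 1 and 2 were dim and leg array 3 was over 20 times brighter, still below every heart array. In dko the same probe set gave 0.64 (adjusted p = 0.589), with leg arrays at 1282, 1915 and 20656, and the mdx extraocular arrays read 26606, 23033 and 30153. A wide spread among the mdx leg arrays was found in a number of bright probe sets. Counting those whose brightest array in a group exceeded 10000 and was at least 20 times the dimmest, a rule made after the values were seen, mdx leg had 16 and the other 5 groups 2 to 4 each. All 16 were highest on leg array 3, and 15 were lowest on leg array 2. Of the 16, 10 are the muscle and glycolytic genes plotted by array, 3 are Snrpb, Hdgf and Fth1, which are neither, and 3 have no gene symbol.

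Some of these spreads decide a call. Casq1, calsequestrin of fast fibres, which buffers calcium in the sarcoplasmic reticulum, read 3009, 2739 and 2771 in heart and 9514, 7.9 and 39647 in leg; its log2 difference was -0.44 (adjusted p = 0.837), and without leg array 2 it was -2.54 (adjusted p = 0.011). Tnnc2, fast troponin C, went from -2.75 (adjusted p = 0.0533) to -4.14 (adjusted p = 0.0029), Actn3 from -3.67 to -5.28, and Myh4 from -4.29 to -6.11. Without the arrays numbered 3, in contrast, Actn3 (-2.36, adjusted p = 0.133) and Myh4 (-2.64, adjusted p = 0.145) were not called. Ldha, the muscle subunit of lactate dehydrogenase, read 17410.0, 12171 and 37299 in heart and 651, 239.5 and 40802 in leg, so the groups overlapped. Its difference was 3.07 (adjusted p = 0.0188) with all arrays, and it was not called without the block (adjusted p = 0.179), heart array 1 (2.94, 0.065), heart array 2 (2.82, 0.0708), leg array 1 (2.40, 0.101) or leg array 2 (2.22, 0.111). One Aldoa probe set, 160090_f_at, gave 4.12 with leg arrays at 344, 14.7 and 28446 (adjusted p = 0.00636, and 0.0709 without the block), and the other, 161889_f_at, gave 0.07. Pkm and Eno3 were not called (1.46 and 1.59, adjusted p = 0.151 and 0.169), and without leg array 2 they were at 0.14 and 0.21. What made leg array 2 dim and leg array 3 bright in these probe sets was not tested.

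**Figure D3:**
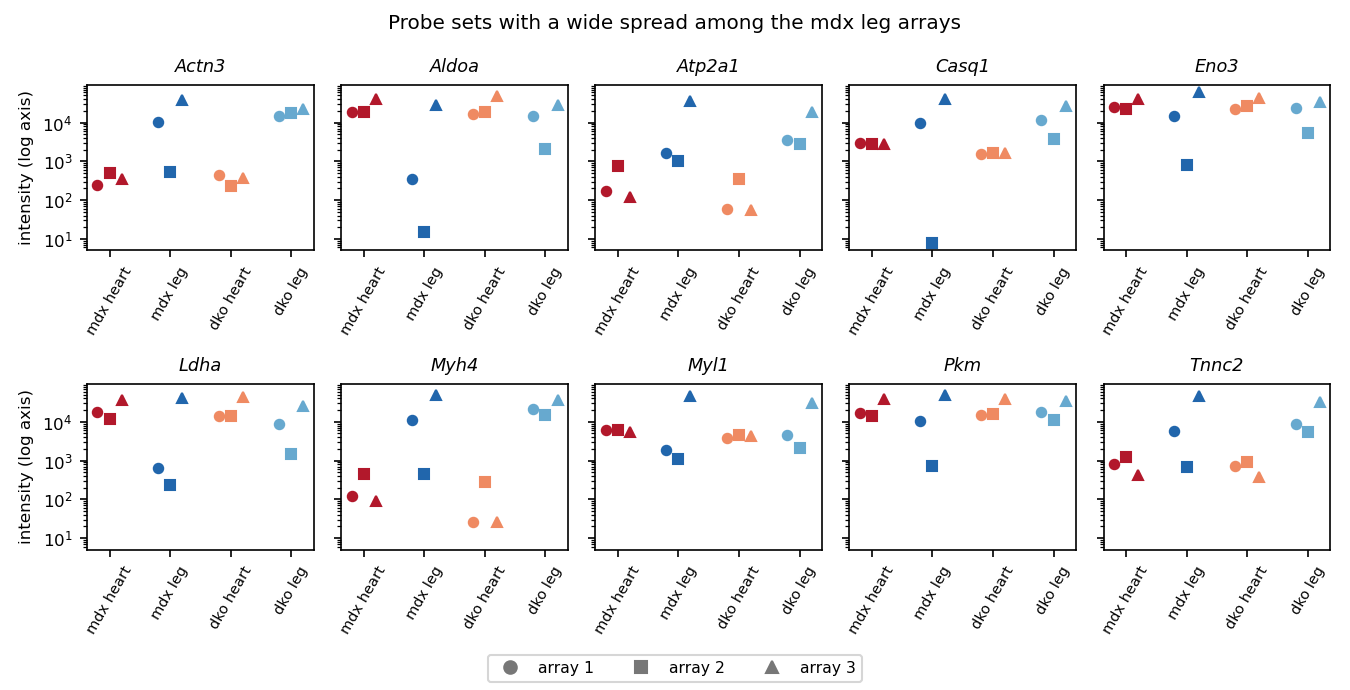
Intensity on a log axis of 10 bright muscle and glycolytic genes on the 3 arrays of mdx heart, mdx leg, dko heart and dko leg, with the array number as the marker. The mdx leg arrays of a gene lie furthest apart, with array 3 on top and array 2 at the bottom in all 10.

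Slow-fibre genes divided. Myh7, Tnnc1 and Myl3 encode the beta myosin heavy chain, the troponin C and a myosin light chain that heart and slow limb fibres share, and all were higher in mdx heart. Tnni1 and Tnnt1, the slow troponins that the adult heart does not use, were lower in heart (-2.80 ± 0.40 and -1.75 ± 0.36, adjusted p = 0.000133 and 0.00251); a second Tnnt1 probe set, 101383_at, gave -0.12. The list as a whole had 3 of 7 higher and 2 lower, with a median of 1.68 in mdx and -2.59 in dko.

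Of the genes that heart and slow fibres share, Myh7, Tnnc1 and Atp2a2 had a tissue difference that depended on genotype. Myh7 (98616_f_at) read 7783, 7145 and 7815 in mdx heart and 241, 1999 and 363 in mdx leg (3.32 ± 0.44, adjusted p = 6.85e-05). In dko it read 12986, 8433 and 8143 in heart and 17632, 15031 and 16145 in leg (-0.74, adjusted p = 0.255), and the dko minus mdx difference of the contrasts was -4.06 (adjusted p = 0.0341). The dko hearts lay above the mdx hearts, and the dko legs stood above every mdx leg and every heart array of either genotype. Tnnc1 (101063_at) read 23056, 13655 and 46178 in mdx heart, 2344, 1361 and 2348 in mdx leg and 11874, 9672 and 14006 in dko leg. Its contrast was 3.53 ± 0.25 in mdx and 1.06 in dko (difference -2.47, adjusted p = 0.0327). Atp2a2, the calcium pump of heart and slow fibres, read 26524, 22213 and 55913 in mdx heart, 1576, 1169 and 2443 in mdx leg and 4687, 5349.8 and 7638 in dko leg (4.14 ± 0.20 in mdx, 2.29 in dko, difference -1.85, adjusted p = 0.0341). None of these differences between genotypes was called without the block, or without the arrays numbered 3.

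Calcium handling had members at both ends: of 24 genes tested 8 were higher in heart and 9 lower. Without the block 6 were higher and 6 lower, and without the arrays numbered 3 the counts were 8 and 6. Leaving out heart array 1, heart array 3 or leg array 3 also left 6 lower. Ryr2 (102653_at), the calcium release channel of the heart, read 11668, 20962 and 15514 in heart and 85.5, 54.5 and 228 in leg (5.82 ± 0.24, adjusted p = 6.79e-10). Ryr1, the release channel of limb muscle, read 151, 273 and 156 and 26374, 21238 and 37379 (-6.29 ± 0.19, adjusted p = 6.47e-11). The voltage-gated channels upstream of them divided the same way. Cacna1c, the cardiac L-type pore subunit, read 5541, 6683 and 7757 against 862, 847 and 743 (2.78 ± 0.22, adjusted p = 4.58e-07), and Cacna1s, the skeletal voltage sensor, read 430.4, 408 and 596 against 9161, 11872 and 17883 (-4.31 ± 0.24, adjusted p = 1.16e-08). Their accessory subunits Cacnb2 (2.54 ± 0.20) and Cacng1 (-4.69 ± 0.30) were higher and lower in heart. No heart array of these genes overlapped a leg array, which the naming rule required of Ryr2, Ryr1, Cacna1s and Cacng1.

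Removal and buffering of calcium differed as well. Slc8a1 (99524_at), the sodium-calcium exchanger that extrudes calcium from cardiomyocytes, read 14913, 18824 and 13195 in heart and 1166, 1255 and 789.5 in leg (3.68 ± 0.14, adjusted p = 4.35e-10). Pvalb (96720_f_at), the cytosolic calcium buffer of fast fibres, read 186, 181 and 92.2 in heart and 26156, 30457 and 45663 in leg (-6.72 ± 0.27, adjusted p = 6.06e-10), the largest leg excess among named genes; the probe set 96719_i_at of the same gene, which was not called, gave 1.64. Casq2, the cardiac calsequestrin, was higher in heart by 0.87 ± 0.20 and S100a1, a calcium-binding protein of cardiac muscle, by 1.88 ± 0.14. The calmodulin kinases split, with Camk2d at 0.87 ± 0.17 and Camk2b at -4.40 ± 0.23. Sypl2 (mitsugumin 29), a membrane protein of the triad, was lower in heart, at -4.19 ± 0.44. Ryr3, Hrc, Fkbp1a and Fkbp1b were not called (-0.16, -0.11, 0.22 and 0.35). Without the block Casq2 and Camk2d were not called (adjusted p = 0.0566 and 0.438).

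Genes of the intercalated disc were mostly higher in heart, 12 of 18 tested, with 2 lower and a median of 0.98. Dsp (94247_at), desmoplakin, which anchors desmin filaments to the desmosome, read 28961, 22734 and 19401 in heart and 406, 316 and 230.2 in leg (5.62 ± 0.27, adjusted p = 3.05e-09). Cdh2, the N-cadherin of the adherens junction, read 12466, 13185 and 10510.0 against 621, 402 and 459.9 (4.22 ± 0.16, adjusted p = 4.35e-10). The desmosomal genes Pkp2, Dsc2 and Dsg2 were higher by 2.98 ± 0.20, 2.90 ± 0.16 and 2.40 ± 0.38, and the catenin Ctnna1 by 1.95 ± 0.13. Gja1, the connexin of the ventricular gap junction, read 19183, 17627 and 55182 against 5646, 4993 and 4084 (2.41 ± 0.36, adjusted p = 0.000202). Fhl2, a LIM-domain protein of the cardiac sarcomere, read 30889, 27835 and 53406 against 833, 762 and 501 (5.40 ± 0.25, adjusted p = 1.54e-09). Myzap, a protein of the disc, was higher by 5.41 ± 0.21, and Perp, a component of desmosomes in epithelia, by 4.94 ± 0.27. The other way went Pdlim3, an actinin-binding Z-disc protein (-4.02 ± 0.14), and Nrap (-0.73 ± 0.16), of the muscle end and the disc, which was not called without the block (adjusted p = 0.465) or without the arrays numbered 3 (0.0582). Des, Vcl and Xirp1, which both tissues use, were not called (-0.18, 0.15 and -0.17).

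Among ion channels 10 of 24 tested genes were higher in heart and 2 lower (median 0.29), beside 12.6% higher and 11.4% lower among all genes. Without the arrays numbered 3, the higher genes numbered 6. The higher genes included potassium channels that repolarise cardiomyocytes: Kcnk3 at 2.32 ± 0.41, Kcnd2 at 2.05 ± 0.34, Kcne1 at 1.81 ± 0.34, Kcnh2 at 1.34 ± 0.25 and Kcna5 at 1.06 ± 0.20. Abcc8, the sulphonylurea receptor that pairs with potassium channels sensitive to ATP, read 888, 1606 and 1733 in heart and 371, 412 and 386 in leg (1.46 ± 0.16, adjusted p = 9.02e-06). Clcn1, the chloride channel that stabilises the resting potential of limb fibres, read 346, 222 and 245 in heart and 3891, 5714 and 3326 in leg (-3.33 ± 0.46, adjusted p = 0.000103). Aqp4, the water channel of fast fibre membranes, was lower in heart, at -1.72 ± 0.26. The heart and leg arrays did not overlap in these channels, except in Aqp4, which was not called without the block (adjusted p = 0.0574). Kcna5 was not called without the arrays numbered 3 (adjusted p = 0.0615). Other potassium channel genes of the list, Kcnq1, Kcnd3, Kcnj12 and Abcc9, were not called (-0.10, 0.29, -0.38 and 0.40). Kcnj8, Kcnj11 and Hcn2 were called higher (0.68, 0.76 and 0.74), but each call was lost in several fits that left out 1 mdx array.

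Secreted factors of the heart had 8 of 16 tested genes higher and 1 lower (median 0.70), beside 12.6% higher and 11.4% lower among all genes. Nppb (104184_at) read 22151, 20842 and 37878 in heart and 452, 342 and 225 in leg (5.72 ± 0.37, adjusted p = 5.13e-08). Nppa, the atrial natriuretic peptide, read 15976, 11864 and 18371 and 1277, 1848 and 867 (3.41 ± 0.25, adjusted p = 2.33e-07). Corin, the protease that cleaves the natriuretic peptide precursors, read 5559.6, 4914 and 4007 and 90.5, 152 and 47.4 (4.26 ± 0.23, adjusted p = 8.25e-09). Both peptides and the protease were thus higher on all heart arrays than on any leg array, which the naming rule required of Nppb and Corin. Clu (clusterin) and Fgf1 were higher by 1.65 ± 0.16 and 1.58 ± 0.18 and Edn1, endothelin, by 0.95 ± 0.22, which was not called without the block (adjusted p = 0.508). Agt, angiotensinogen, was lower in heart, at -1.61 ± 0.28. In the list of autonomic receptors and their signalling 4 of 10 were higher (2 without the arrays numbered 3) and 1 lower, with Adcy6, a main adenylyl cyclase of the heart, at 1.68 ± 0.15 and Rgs2, a brake on receptor signalling, at 1.82 ± 0.21.

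Transcription factors of the heart had 5 of 14 tested genes higher and 1 lower (median 0.68), beside 12.6% higher and 11.4% lower among all genes. Nkx2-5 (97777_at), the homeobox factor of the cardiac lineage, read 1488, 3051 and 6982 in heart and 139.6, 115 and 102 in leg (3.56 ± 0.39, adjusted p = 1.19e-05). Gata6 (104698_at), a zinc-finger factor of heart and gut, read 1864, 1631 and 4431 and 113, 60.3 and 82.1 (3.35 ± 0.27, adjusted p = 5.05e-07), although a second probe set, 93925_at, gave 0.06. Hopx, a homeodomain protein that does not bind DNA, read 20983, 20932 and 31849 and 1367, 1473 and 1156 (4.02 ± 0.24, adjusted p = 1.84e-08). Irx3 was higher by 0.97 ± 0.18. Gata4 and Hand2, also cardiac factors, were not called (1.39 and 0.79, adjusted p = 0.0535 and 0.125). Mef2c, which the list held for its part in heart development, was lower in heart: it read 198, 667 and 1390.2 in heart and 3204, 7166 and 12135 in leg (-3.11 ± 0.29, adjusted p = 1.72e-06).

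Factors of limb and skeletal muscle had 18 of 36 tested genes lower in heart and 1 higher (median -0.70). The count of lower genes was 12 without the block, 14 without the arrays numbered 3 and 13 without heart array 2. The 1 higher gene, Meox1, was lost without the block, the arrays numbered 3 or any 1 mdx array except leg array 3. The list also holds position genes of the Hox clusters, which mark where along the body a tissue formed. Tbx15 (102256_at), a T-box factor of fast fibres and limb mesenchyme, read 33, 50 and 112 in heart and 3329, 4873 and 3486 in leg (-4.13 ± 0.27, adjusted p = 7.09e-08). Pitx1, a hindlimb identity gene, differed by -1.07 ± 0.21, and the Hox genes Hoxc9 and Hoxa10 by -1.80 ± 0.18 and -1.56 ± 0.21. Sox6, a repressor of slow genes in fast fibres, was lower, at -1.27 ± 0.21 and Six4 at -1.11 ± 0.25. Of the myogenic factors, Myf6, which adult fibres keep, differed most: it read 394, 295 and 78.2 in heart and 3756, 6445 and 7924 in leg (-3.90 ± 0.36, adjusted p = 1.81e-06). Myog and Myod1, which drive muscle differentiation, were lower, at -2.92 ± 0.27 and -1.91 ± 0.40.

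Genes of embryonic and regenerating muscle were lower in heart in 14 of 18 tested, 1 was higher, and the median was -1.46; in dko 15 were lower and 0 higher. Myh3 (160753_at), the embryonic myosin that new fibres express, read 62.7, 29.3 and 43.3 in heart and 2049, 1345 and 2548 in leg (-3.31 ± 0.28, adjusted p = 8.54e-07). Myh8, the perinatal myosin, read 20.1, 26.3 and 29.4 and 1825, 1997 and 2721 (-3.60 ± 0.18, adjusted p = 3.91e-09). In both genes every leg array exceeded every heart array, which the naming rule required of Myh8. Cdh15, the cadherin of satellite cells, was lower, at -1.87 ± 0.21, Mstn (myostatin) at -1.99 ± 0.19 and Igf2 at -1.54 ± 0.35. The 1 gene called higher, Myl4, an atrial and embryonic light chain (0.78 ± 0.27), was lost when any 1 of the 6 mdx arrays was left out (between 0.64 without heart array 1, adjusted p = 0.174, and 0.92 without heart array 2, adjusted p = 0.0512) and gave a value on the other side of 0 with a second probe set, 100828_at (-0.56). Igf2 was not called without the arrays numbered 3 (adjusted p = 0.053). Pax3 and Dlk1 were not called (-0.02 and -0.66). A lower level in bulk tissue can come from fewer cells of a type or from less RNA per cell, and these cannot be told apart here.

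At the neuromuscular junction 6 of 12 tested genes were lower in heart and 2 higher (median -1.02), beside 11.4% lower and 12.6% higher among all genes. Only 1 was higher without the block, heart array 2, heart array 3 or leg array 3. Chrna1 (100021_at) read 73, 71.9 and 46.4 in heart and 2326, 3360.4 and 3349 in leg (-3.77 ± 0.17, adjusted p = 1.36e-09). Chrnb1, the beta subunit, was lower, at -2.46 ± 0.22, Chrne, of the adult receptor, at -1.63 ± 0.16, and Chrng, of the fetal receptor, at -1.42 ± 0.30. Ache, which breaks acetylcholine down, was lower, at -2.53 ± 0.43. Chrnd, Rapsn and Colq were not called (0.35, -0.63 and -0.50). The dystrophin complex and its neighbours at the costamere gave 7 of 20 lower and 3 higher (median -0.12), and 4 lower and 1 higher without the block. The 3 higher lie near the share of all genes. Dmd itself read 279, 222 and 212 in heart and 502, 216 and 229 in leg (-0.21, adjusted p = 0.565), and the probe set does not say whether the transcript carries the mutation. Utrn, the relative of dystrophin, had 2 probe sets at 0.21 and 0.30, neither called. Nos1, the nitric oxide synthase bound at the complex in limb fibres, was lower in heart, at -1.46 ± 0.25 and Sgca at -0.73 ± 0.16. Sgce, the epsilon-sarcoglycan that is made outside muscle fibres as well, was higher by 1.01 ± 0.18, and Sspn, sarcospan, by 0.80 ± 0.14. Capn3, the limb-muscle calpain, and Plec, which links the cytoskeleton to membranes, were lower, at -2.33 ± 0.21 and -2.18 ± 0.30. Sgca and Sspn were not called without the block (adjusted p = 0.337 and 0.165).

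**Figure D4:**
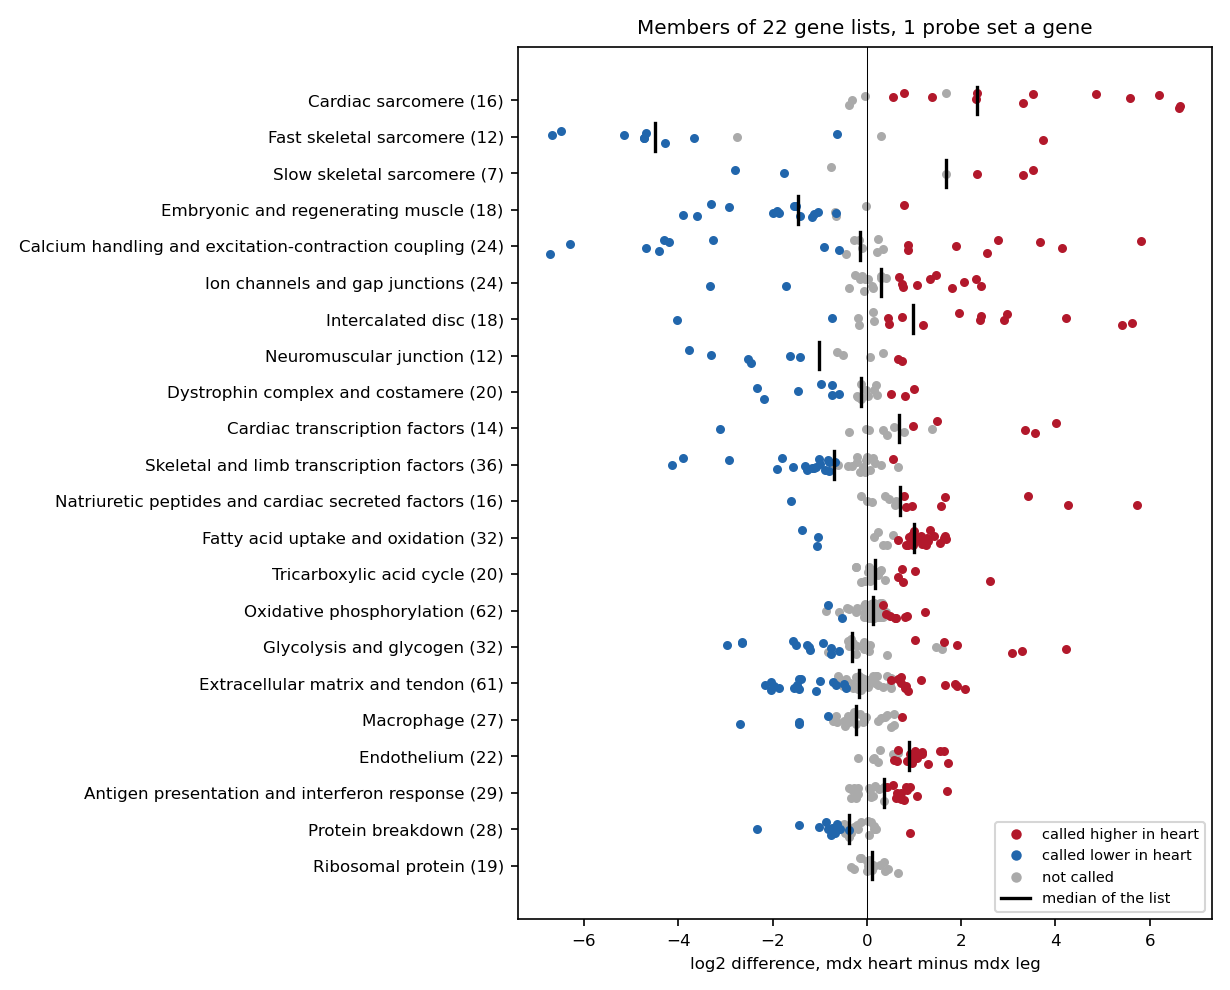
Each point is a gene of 1 of 22 lists, at its log2 difference between mdx heart and mdx leg; red is called higher in heart, blue called lower, grey not called, the black bar is the median and the number in brackets the genes tested. The cardiac sarcomere, intercalated disc, fatty acid and endothelium lists lie mostly to the right of 0, and the fast sarcomere and embryonic lists mostly to the left.

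Genes of fatty acid use were mostly higher in heart. Of 32 tested genes of fatty acid uptake and oxidation 24 were higher in mdx heart and 3 lower, with a median of 1.00. Without the block 16 were higher in mdx heart and 2 lower. In dko, with the block, 26 were higher and 1 lower. Lpl, which frees fatty acids from lipoproteins in the capillary, read 20097, 29292 and 28599.8 in heart and 10272, 7364 and 7259.9 in leg (1.63 ± 0.22, adjusted p = 7.27e-05). Cd36, the uptake receptor, differed by 1.29 ± 0.18 and Fabp3, the cytosolic carrier, by 0.89 ± 0.15. The mitochondrial entry steps Cpt1a, Slc25a20 and Cpt2 gave 1.42 ± 0.22, 1.28 ± 0.12 and 1.34 ± 0.15. Within the beta-oxidation spiral, Acadm, Acadl, Echs1, Hadh and Hadhb gave 0.65, 0.88, 1.68, 1.00 and 1.02, all called higher. Echs1, the enoyl-CoA hydratase, read 6769.6, 8544 and 17246 in heart and 3336, 2784 and 2956 in leg, with no overlap. The regulators Ppara and Ppargc1a were higher by 1.17 ± 0.20 and 0.98 ± 0.18, and Oxct1, which heart uses to burn ketone bodies, by 1.26 ± 0.14. The 3 lower genes were Acsl4, Ucp3 and Acads (-1.38 ± 0.15, -1.06 ± 0.23 and -1.03 ± 0.22); a second Acads probe set, 103401_at, was called the other way (0.66; adjusted p = 0.123 without the block, 0.0827 without heart array 3 and 0.0699 without leg array 3). Among the genes not called without the block were Fabp3, Ppargc1a, Acadm and Acads (adjusted p = 0.219, 0.225, 0.363 and 0.192). Echs1 was not called without the arrays numbered 3 (0.0507).

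Of 62 oxidative phosphorylation genes, which encode the respiratory chain and ATP synthase, 8 were higher and 2 lower (median 0.14, with 49 of the 62 above 0), beside 12.6% higher and 11.4% lower among all genes. Without the block 3 were higher and 0 lower, and leaving out heart array 1, 2 or 3 or leg array 1 left 4 or 5 higher and 0 to 2 lower. In dko 19 were higher and 2 lower (median 0.21). Cox6a1 and Cox7a1 differed by 1.24 ± 0.14 and 0.60 ± 0.14 (Cox7a1 was not called without the arrays numbered 3, adjusted p = 0.0751); Cox6a2, the muscle form that heart also uses, was not called (-0.86). Of 20 genes of the tricarboxylic acid cycle 5 were higher and 0 lower (median 0.18), and 3 higher without the block. Idh2, the mitochondrial isocitrate dehydrogenase that makes NADPH, read 18624, 16302 and 37954 in heart and 3449.5, 2591 and 5039.9 in leg (2.61 ± 0.13, adjusted p = 4.8e-09). Its arrays did not overlap, and the next largest of that list, Suclg2, differed by 1.03 ± 0.14.

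Glycolysis and glycogen had 12 of 32 tested genes lower in heart and 6 higher (median -0.32), beside 11.4% lower and 12.6% higher among all genes. Several of the lower genes handle glycogen: Phkg1 and Phka1, subunits of the phosphorylase kinase that starts glycogen breakdown, were lower in heart, at -2.96 ± 0.14 and -2.64 ± 0.22. Gys1, glycogen synthase, was lower, at -1.56 ± 0.16, Ugp2, which makes its substrate, at -1.51 ± 0.15, and Gbe1, the branching enzyme, at -0.93 ± 0.16. Gpd1, of the glycerol phosphate shuttle, read 3995, 1578 and 1338 in heart and 9256, 14797 and 18734 in leg (-2.64 ± 0.42, adjusted p = 0.000374). The isoforms that heart shares with other tissues went the other way. Pygb, the brain form of glycogen phosphorylase, read 7145, 8567 and 10962 in heart and 451, 127 and 441 in leg (4.22 ± 0.24, adjusted p = 1.14e-08), while Pygm, the muscle form, was not called (-0.37). Ldhb, the heart subunit of lactate dehydrogenase, read 10754, 12028 and 18583 and 1178, 746 and 2034 (3.28 ± 0.25, adjusted p = 2.92e-07). Pfkl and Pfkp were higher by 1.91 ± 0.16 and 1.64 ± 0.24, and the lactate transporter Slc16a1 by 1.02 ± 0.19 (adjusted p = 0.0994 without the block). Of 16 genes for creatine, adenylate and oxygen buffers 4 were lower and 1 higher: Car3, the carbonic anhydrase of slow fibres and fat, was lower, at -4.12 ± 0.53, Adssl1, the muscle adenylosuccinate synthase, at -2.68 ± 0.11 and Ckm, muscle creatine kinase, at -1.59 ± 0.35, though the Ckm probe set 160175_at gave 0.47.

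**Figure D5:**
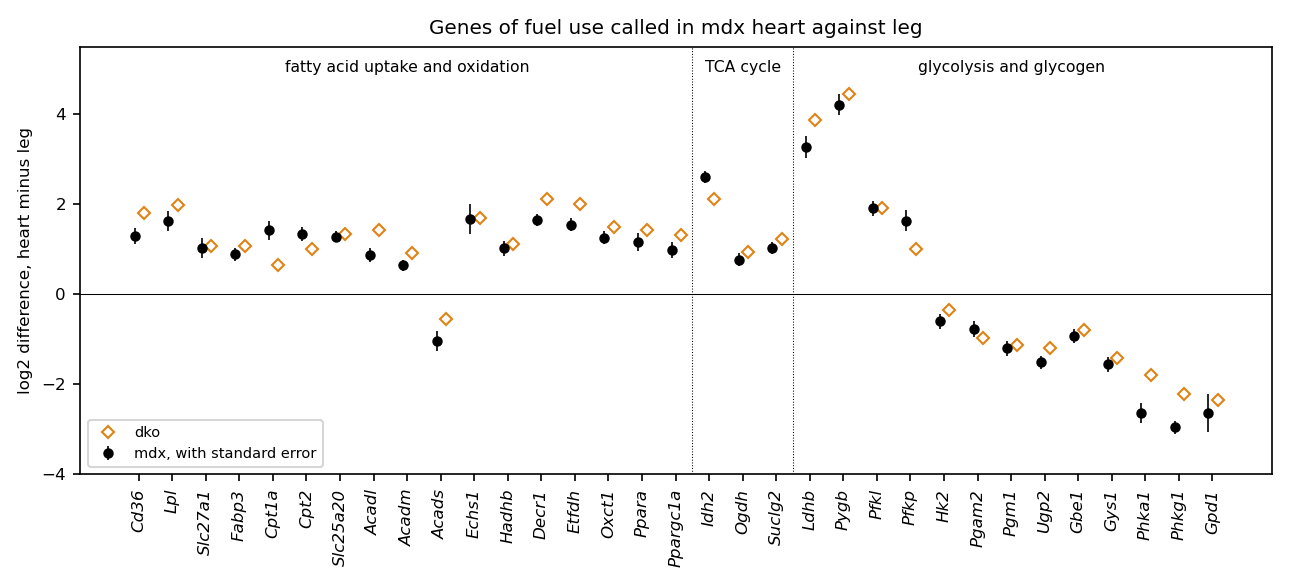
Log2 difference between heart and leg of 33 genes of fuel metabolism, all called in mdx and picked to show each step, with the mdx value and its standard error as a point and bar on the vertical axis and the dko value as a diamond. The fatty acid genes drawn lie above 0, between 0.65 and 1.68 in mdx, apart from Acads, and the genes from Hk2 to Gpd1 lie below 0. Called genes that are not drawn include Acsl4 and Ucp3, which were lower in heart, and Ldha and Slc16a1, which were higher. The pattern therefore depends in part on which genes were drawn.

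Of 61 tested genes of the extracellular matrix and tendon 16 were lower in heart and 12 higher (median -0.16), beside 11.4% lower and 12.6% higher among all genes. Without the block 9 were lower and 6 higher. Among the lower was Col1a1 (94305_at), a chain of the main fibrillar collagen, which read 5109, 4245 and 11165 in heart and 17281, 16292 and 53828 in leg (-1.96 ± 0.17, adjusted p = 1.1e-06). Col1a2, Col3a1 and Col5a2 were lower, at -2.03 ± 0.18, -1.86 ± 0.21 and -2.04 ± 0.15, although a second Col1a2 probe set, 161156_r_at, gave -0.06. Fmod, a tendon proteoglycan that binds collagen, was lower, at -2.16 ± 0.38, Lox, which crosslinks collagen, at -1.54 ± 0.30, and Postn, made by activated fibroblasts, at -1.40 ± 0.19. Among the higher were genes of the basement membrane, with Lama5 at 1.92 ± 0.23, Lama4 at 0.72 ± 0.13 and Col4a2 at 0.84 ± 0.19; Fbln1 was at 2.09 ± 0.23 and Ccn2, a target of growth factor signalling in fibroblasts, at 1.86 ± 0.34. Without the block Fmod, Lama4 and Col4a2 were not called (adjusted p = 0.19, 0.0686 and 0.193), nor was Col4a2 without the arrays numbered 3 (0.0502). The 4 tested markers of fibroblast and tendon summed to 12894 to 22163 in heart and 42536 to 123096 in leg, and all 4 were lower in heart. How much of the collagen difference lies in tendon taken with the leg muscle was not tested.

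Endothelial genes were higher in heart in 15 of 22 tested and lower in 0 (median 0.89). Without the block 10 were higher, and also 10 without the arrays numbered 3. Eng, a co-receptor of endothelial cells, read 11916, 13732 and 25254 in heart and 4839, 3690.3 and 5856 in leg (1.73 ± 0.21, adjusted p = 2.77e-05). Vwf, the clotting factor stored in endothelium, read 2837, 3304 and 3593 and 1026, 961 and 985 (1.55 ± 0.15, adjusted p = 2.47e-06). Icam2, Nos3, Tek and Kdr were higher by 1.64 ± 0.24, 1.30 ± 0.27, 1.02 ± 0.22 and 0.92 ± 0.19 (Nos3 not without the block, adjusted p = 0.483, or the arrays numbered 3, 0.0522), while Pecam1 and Cdh5 were not called (0.55 and 0.27). The summed endothelial markers were 19133 to 21163 in heart and 11914 to 12656 in leg. Markers of mesothelium and epicardium, the outer cover of the heart, summed to 2195 to 3353 against 596.5 to 1394; all 3 tested were higher in heart, and 0 of them without the block. Tcf21, a factor of epicardium-derived fibroblasts, was higher by 1.88 ± 0.24. Smooth muscle had 2 of 11 higher and 0 lower, beside 12.6% higher and 11.4% lower among all genes. There were 0 higher without the block, leg array 2 or leg array 3, 1 without heart array 1, 2 or 3, and 3 without leg array 1. Of 4 erythroid genes Hbb-b2 (beta-globin) and Alas2, which starts haem synthesis in red cells, were higher (3.22 ± 0.46 and 4.19 ± 0.36); Hba-a1 (-1.65) and Slc4a1 (0.51) were not called.

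Of 27 macrophage genes 4 were lower in mdx heart and 1 higher (median -0.24), a share near that of all genes (11.4% lower and 12.6% higher). Without leg array 2 there were 8 lower and 0 higher, and without leg array 3 there were 3 higher. The summed macrophage markers ran from 19253 to 24973 in heart and from 20146 to 43648 in leg, so the groups overlapped. Lgals3, galectin of activated macrophages and of regenerating muscle, read 333, 506 and 810.0 in heart and 3852, 2885 and 7229 in leg (-2.70 ± 0.29, adjusted p = 7.85e-06). Ctss and Mpeg1, a protease and a pore protein of phagocytes, were lower, at -1.43 ± 0.24 and -1.43 ± 0.30; Adgre1 and Cd68 were not called (-0.66 and -0.64). In dko 19 of the 27 were lower in heart, with a median of -0.97, and no macrophage gene was among the 4 probe sets whose contrast differed by genotype. Antigen presentation and interferon genes gave 13 of 29 higher and 0 lower (median 0.36), and 1 higher without the block; without heart array 1, heart array 2, leg array 1 or leg array 2 there were 8, 6, 8 and 5; in dko 2 were higher and 6 lower. Iigp1, a GTPase that interferon induces, was higher by 1.70 ± 0.27 and the immunoproteasome subunit Psmb9 by 1.07 ± 0.25 (adjusted p = 0.332 without the block). Of 24 complement, chemokine and cytokine genes 3 were higher and 3 lower (1 higher without the block, heart array 2 or leg array 2, and 5 lower without leg array 2; in dko 3 higher and 10 lower, median -0.50), with Cxcl12 at 1.54 ± 0.21 and Cd55, which restrains complement, at -2.05 ± 0.21; a second Cxcl12 probe set, 160511_at, gave -0.69, a call that was lost without the block (adjusted p = 0.182), heart array 1 (-0.55, 0.141), heart array 3 (-0.73, 0.0625), leg array 1 (-0.46, 0.171) or leg array 3 (-0.61, 0.111).

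The counts of the lists that follow stand beside 12.6% higher and 11.4% lower among all genes. Protein breakdown had 12 of 28 genes lower in heart (5 without the block) and 1 higher (median -0.38), among them Capn1 (-1.44 ± 0.24, adjusted p = 0.0514 without the block) and the proteasome subunits Psma3 and Psmd8 (-1.01 ± 0.17 and -0.83 ± 0.14); Foxo3, a factor that turns on atrophy genes, was higher (0.92 ± 0.15). Clock and immediate early genes had 8 of 27 lower and 2 higher (4 lower without the block or heart array 2, 5 without leg array 1 or leg array 2), with Dbp, an output of the clock, at -1.57 ± 0.24, Bhlhe40 at -1.35 ± 0.17 and Klf4 at 1.14 ± 0.25. Growth factor and hormone signals had 7 of 26 lower and 1 higher, Socs2 (1.13 ± 0.20). There were 3 higher without heart array 2, 3 lower without the block or heart array 2, and 4 without heart array 3, leg array 1 or leg array 2. Heat shock and oxidative stress genes had 10 of 32 higher and 2 lower (3 higher without the block, 4 without the arrays numbered 3, 6 without heart array 2), with the glutathione transferases Gstm2 and Gsta4 at 1.82 ± 0.26 and 1.73 ± 0.25 and metallothionein Mt2 at -1.62 ± 0.37 (adjusted p = 0.134 without the arrays numbered 3). Adipocyte genes had 7 of 18 higher and 3 lower; 3 were higher without the block, and 4 without heart array 1, heart array 2, leg array 1 or leg array 2. Cell division had 1 of 24 higher and 4 lower (0 and 2 without the block), endocardium and epicardium 4 of 10 higher and 1 lower (1 higher without the block), and Schwann cell and nerve 1 of 10 higher and 2 lower (0 and 1 without the block). T and B cell genes had 1 of 9 higher and 0 lower (0 higher without the block), skin and lung 2 of 13 higher and 0 lower (1 higher without the block), and thymus 0 of 5 higher and 1 lower (0 lower without the block). The counts of cell division, Schwann cell and nerve, T and B cell, skin and lung, and thymus lie near the shares of all genes. The counts of higher genes in the adipocyte list and in endocardium and epicardium lie above the 12.6% of all genes, and fell to 3 and 1 without the block. Leaving out 1 mdx array moved these counts as well: cell division had 2 lower without heart array 2 or 3 or any leg array, and endocardium and epicardium had 1 higher without heart array 2, leg array 2 or leg array 3 and 2 without heart array 3. The single higher gene was lost in cell division except without leg array 1, in the T and B cell list except without heart array 2, and in the Schwann cell list without heart array 1 or leg array 3, while the lower genes of the Schwann cell list went to 1 without heart array 2, leg array 1 or leg array 3. Skin and lung had 1 higher without heart array 2, heart array 3 or any 1 leg array, and thymus 2 lower without heart array 2. Of the 19 ribosomal protein genes tested 0 were called in either direction by limma, with values between -0.33 and 0.66 (3 had an unadjusted p under 0.05, and 1 was called without leg array 3).

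Several of the largest differences belonged to genes on none of the lists. On the heart side Ptgds, a prostaglandin D synthase, read 10582, 12267 and 11889 in heart and 617, 658 and 63.8 in leg (4.47 ± 0.43, adjusted p = 3.21e-06); a second probe set, 102105_f_at, gave 0.55. Rbpms, an RNA-binding protein, differed by 3.92 ± 0.34, Ces1d, a carboxylesterase, by 3.67 ± 0.33, and Entpd5, a nucleotidase of the endoplasmic reticulum, by 3.60 ± 0.20. On the leg side Itm2a, a membrane protein of muscle precursors and T cells, read 635, 864 and 1011 in heart and 12863, 19158 and 11266 in leg (-3.84 ± 0.19, adjusted p = 3.16e-09). Amot (angiomotin), Tspan8, Ankrd2 and Tlcd4 differed by -3.92 ± 0.15, -3.57 ± 0.20, -3.49 ± 0.22 and -3.47 ± 0.25; Ankrd2 encodes a stretch-responsive protein of slow fibres. Among probe sets without a single gene symbol, 93028_at read 2603, 1990.3 and 3108 in heart and 21298, 17706 and 59579 in leg (-3.40 ± 0.27), and 97525_at read 2410.3, 1994 and 4132 and 466, 95.5 and 418 (2.65 ± 0.24). These probe sets are given by their identifiers because the annotation used here pairs them with no single gene.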

How the data were processed

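The series holds 18 Affymetrix arrays of total RNA, 3 for each of 3 muscles (extraocular, leg, heart) in 2 genotypes. The deposited values are intensities on a linear scale, which the authors had scaled before deposit to trimmed means of 1500.7 to 1501.2 (2% trimmed from each tail, read from the values); the software, detection calls and scan dates are not given in the sources used here. The number of arrays limits the precision.

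Of 12488 probe sets, 66 controls were left out of the main fit and fitted by themselves. Gene symbols came from the supplied platform table: 10833 probe sets had 1 symbol, 396 several and 1193 none. A probe set was tested where 3 or more of the 18 arrays placed it over their 40th percentile; 8888 remained, for 6551 genes. limma 3.58.1 (R 4.3.3; lmFit and eBayes, two-sided) was fitted to log2(intensity + 166.1), the offset being the median of the arrays' 25th percentiles, with 6 group means and the replicate number as a block shared by the groups (residual degrees of freedom 10, prior 4.03). An adjusted p (Benjamini-Hochberg over all 8888) under 0.05 was called. The fit was tested on simulated data. Promoters came from RefSeq and figures from matplotlib 3.10.9.

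The block was named in the rule that set the comparison. Arrays of the same number deviated together: their correlations were 0.326 to 0.751 (45 pairs), against -0.628 to -0.28 between number 3 and the others (60 pairs) and 0.0343 to 0.311 between numbers 1 and 2 (30 pairs). The deviations were taken from each group's mean, so positive values for the same number force lower ones between unlike numbers. The negative values are therefore not a separate sign that same-numbered arrays deviated together. The labels give the numbers without saying what they mark. Where a gene had several probe sets, the one with the highest mean over the 18 arrays stood for it. Named genes are the 25 furthest in each direction among called, single-symbol probe sets whose heart and leg arrays do not overlap, and members of 37 gene lists, 14 marker lists and 27 pairs. Members and lists were chosen with earlier results of these data known. No set test was run. Alternatives were other scalings, offsets, filters and sets of arrays, and fits without the block or without 1 array. The identity of paired proteins, planned as a description, is not given because no protein sequences were used here.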

Additional observations from a re-analysis of the deposited data

Results flagged for a closer look

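The difference between heart and leg depended on genotype in 4 of the 8888 probe sets, by a test of the difference of the 2 contrasts (dko minus mdx, limma, adjusted p under 0.05). It was -4.06 for Myh7 (98616_f_at, adjusted p = 0.0341), which went from 3.32 in mdx to -0.74 in dko. For Tnnc1 (101063_at) it was -2.47 (adjusted p = 0.0327), from 3.53 to 1.06. For Atp2a2 (99570_s_at) it was -1.85 (adjusted p = 0.0341), from 4.14 to 2.29. The probe set 98501_at, without a gene symbol, gave -1.55 (adjusted p = 0.0134), from -0.21 to -1.76. Without the replicate block 0 of the 4 were called, while 844 probe sets had an unadjusted p under 0.05 with the block and 259 without it.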

How the results depend on the processing

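With 3 arrays a group, the number of arrays limits the precision. Without the replicate block (no replicate block), 886 probe sets were called in mdx (448 higher, 438 lower) and 951 in dko (459 and 492). Without the arrays numbered 3 there were 1336 (685 and 651) in mdx and 1299 (641 and 658) in dko. With both changes, an alternative chosen after seeing the data, there were 847 (449 and 398) and 858 (408 and 450). The 6 mdx heart and leg arrays alone gave 1260 (640 and 620). The genotype difference was called for 0 probe sets in fits without the block, without the arrays numbered 3 with or without the block, on the 12 heart and leg arrays, and at the offset divided by 10, for 11 at 4 times the offset, and for 0 to 7 leaving out 1 array. Leaving out 1 mdx array gave 1583 to 1735 mdx calls (807 to 903 higher, 768 to 832 lower), and leaving out 1 dko array 1578 to 1736 dko calls. Of 334 called results for single genes, 331 stayed called under quantile normalization, 328 under scaling to the 75th percentile, 318 without a filter, 251 with the 6 arrays alone, 243 without number 3, 208 without the block and 269 to 289 leaving out 1 mdx array. Of the called results recomputed, 0 reversed direction under the alternatives run; values that were not called could change sign, as Casq1 did (-0.44, and 1.23 without number 3). List counts fell as well. Without the block the cardiac sarcomere had 10 higher, the intercalated disc 9 higher, and the embryonic and regenerating list 13 lower. Glycolysis and glycogen then had 9 lower and 4 higher. Without the arrays numbered 3 the fast sarcomere had 6 lower and the embryonic list 11. The cause of the lost calls was not tested; fits on fewer arrays have fewer degrees of freedom.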
